A study of Mus musculus with 6 samples.

Results

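The replication-dependent histone genes were taken as every row of the deposited table whose symbol begins with Hist1h, Hist2h, Hist3h or Hist4h, after 1 row whose symbol ends in -ps was dropped. This gave 68 of the 53735 genes in the table. They comprise 6 H1, 19 H2A, 18 H2B, 12 H3 and 13 H4 genes, with the class read from the symbol. The symbols alone chose the members, but the group was picked for description after the difference of Hist1h2bm between liver and bone marrow was known. All liver and bone marrow values of these genes are therefore given as a description and support nothing. RNA was sequenced from leukemia stem cells, the fraction of a leukemia able to regrow it, recovered from untreated C57 mice 13 days after they had received leukemia cells, as 3 bone marrow libraries and 3 liver libraries. Every library is labelled male. The labels do not name the leukemia, its driver, the age of the mice or the animals behind a library. They describe the libraries of each tissue as technical replicates, so the spread between libraries may be technical in part. Sex-linked transcripts, given below, go against that description.

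Histones package DNA into nucleosomes. H2A, H2B, H3 and H4 form the protein core around which DNA is wound, and H1, the linker histone, binds where DNA enters and leaves that core. Replication-dependent histone genes lie in clusters of many similar copies and are transcribed mainly in S phase, when new DNA has to be packaged. Their mRNAs are the known exception among animal mRNAs in that most end in a conserved stem-loop instead of a poly(A) tail. The stem-loop is bound by SLBP and the mRNA end is cut with the help of the U7 small nuclear ribonucleoprotein, although some of these genes can also yield polyadenylated transcripts. A method that primes cDNA on poly(A) tails recovers stem-loop mRNAs poorly. The labels name a SMARTer low-input kit with Nextera XT and do not state the primer, so levels here are those of the molecules that this chemistry captured.

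The stem-loop is the element that these mRNAs share and is shown for that reason. It was searched as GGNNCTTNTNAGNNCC on the transcript strand after the stop codon in the GENCODE M21 transcripts, and 46 of the 68 genes held it, 21 to 58 bases after the stop codon. The search found 8 forms, printed here 5′ to 3′ with the 4-base loop in capitals.
Hist1h2bm and others, 26 genes: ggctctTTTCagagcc
Hist1h4d and others, 7 genes: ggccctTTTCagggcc
Hist1h2bk and others, 6 genes: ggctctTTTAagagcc
Hist1h4i and Hist2h4: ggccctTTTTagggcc
Hist1h4b and Hist1h4j: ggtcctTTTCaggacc
Hist1h4a: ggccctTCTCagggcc
Hist1h3g: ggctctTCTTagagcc
Hist2h2ac: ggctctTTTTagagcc
The other 22 gene models hold no match to these letters. Several of them are short, such as Hist1h2bl (381 bases of exon), Hist1h2ai (393) and Hist1h4k (312). A model that ends at or near the stop codon leaves no room for the search. For such short models the lack of a match does not show that the mRNA lacks a stem-loop. Other models without a match are longer, such as Hist2h2be (2620 bases), Hist1h2br (2212), Hist1h2bq (2015) and Hist1h2bc (1156). Why these hold no match, and whether their mRNAs lack a stem-loop, was not tested. Hist1h2bc carried 10.4% of the histone signal.

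Of the 46 models with a stem-loop, 23 end less than 100 bases after it and 23 run at least 100 bases past it. The latter carried 63.8% of the histone signal in these libraries, and 12 of the 20 most abundant genes were among them. Models ending near the stem-loop carried 9.94% and models without a match 26.2%. Per kilobase of annotated exon the median bone marrow level was 50.3 normalized counts for models that run past the stem-loop and 31.4 for those that end near it. The annotation behind the counts is not given in the sources used here, and lengths are those of M21.

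The promoters of the 4 histone genes that passed the threshold in the fit over all genes are shown next, since the results turn on those genes. Of the 4, Hist1h2bm, Hist1h2bk and Hist1h2ae share a start region with a neighbour. Each run covers 250 bases before to 50 bases after the RefSeq start (GRCm38.p6), 5′ to 3′ on the gene's strand. Capitals mark exact matches on either strand to 4 sets of letters. TATAAA stands for the core promoter box that carries its name. Only Hist1h1b holds it on the gene's own strand. Hist1h2bk and Hist1h2ae hold it on the opposite strand, where it may belong to the neighbour, and Hist1h2bm does not hold it. CCAAT is bound by NF-Y. The octamer ATTTGCAT is known for its binding by OCT1 in H2B promoters. AAACACA is a box known from H1 promoters. No match overlaps another in these 4 promoters.
Hist1h2bm, chr13:21721794-21722093, plus strand: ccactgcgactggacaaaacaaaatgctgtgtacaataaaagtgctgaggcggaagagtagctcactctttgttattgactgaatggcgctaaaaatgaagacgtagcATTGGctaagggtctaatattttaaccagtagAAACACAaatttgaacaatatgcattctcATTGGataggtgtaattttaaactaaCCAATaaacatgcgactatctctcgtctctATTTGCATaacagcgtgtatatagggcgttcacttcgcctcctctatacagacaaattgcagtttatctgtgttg
Hist1h2bk, chr13:22035571-22035870, plus strand: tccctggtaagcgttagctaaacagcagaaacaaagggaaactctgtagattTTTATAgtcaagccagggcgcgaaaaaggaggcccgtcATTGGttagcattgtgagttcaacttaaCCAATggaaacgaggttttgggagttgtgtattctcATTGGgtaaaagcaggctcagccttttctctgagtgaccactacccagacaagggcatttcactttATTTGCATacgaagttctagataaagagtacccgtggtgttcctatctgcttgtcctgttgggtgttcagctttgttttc
Hist1h2ae, chr13:23571171-23571470, minus strand: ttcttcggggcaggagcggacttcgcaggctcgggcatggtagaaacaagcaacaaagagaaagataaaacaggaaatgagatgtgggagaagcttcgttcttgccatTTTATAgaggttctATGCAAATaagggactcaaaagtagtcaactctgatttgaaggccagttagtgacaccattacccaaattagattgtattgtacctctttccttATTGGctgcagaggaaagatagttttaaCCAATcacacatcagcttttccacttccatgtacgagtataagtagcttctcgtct
Hist1h1b, chr13:21780576-21780875, minus strand: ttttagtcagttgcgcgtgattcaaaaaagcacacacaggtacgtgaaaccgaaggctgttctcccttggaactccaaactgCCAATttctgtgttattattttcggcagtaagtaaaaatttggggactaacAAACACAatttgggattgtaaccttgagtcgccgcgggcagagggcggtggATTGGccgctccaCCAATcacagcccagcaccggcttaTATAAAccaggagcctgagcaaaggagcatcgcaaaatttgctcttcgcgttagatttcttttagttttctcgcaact
A promoter was matched by symbol or synonym for 61 of the 68 genes. Of these, 57.4% held TATAAA against 13.6% of all 32851 promoters in the RefSeq table, and 85.2% held CCAAT against 37.4%. ATTTGCAT was found in 7 of 16 H2B and 7 of 17 H2A promoters and in 1.74% of all promoters. None of 6 H1, 10 H3 or 12 H4 promoters held it. Both strands were searched and the promoters of head-to-head H2A and H2B genes can overlap, so the same match can count for both. Hist1h2ae, which holds the octamer on the opposite strand, and its neighbour Hist1h2bg were both counted. The H2A and H2B counts are therefore not independent. AAACACA was found in 5 of 6 H1 promoters and in 7.18% of all promoters. Every matched H1, H2A, H2B and H3 promoter held CCAAT, while 3 of 12 H4 promoters did. These are matches of letters, not measured binding sites.

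Libraries held 9731597 to 18478084 reads, with the liver libraries shallower (9731597 to 13819061) than the bone marrow libraries (15404687 to 18478084). Replicates 1 and 2 went against each other in sex-linked transcripts although all are labelled male. Xist stood at 4860 and 6229 normalized counts in replicate 1 of bone marrow and liver and at 4.28 and 1.42 in replicate 2, with replicate 3 in between (2486 and 2425). The labelled cell type was checked with 8 genes of blood and progenitor cells (Ptprc, Kit, Cd34, Ly6a, Spi1, Myb, Hoxa9 and Meis1), whose sum lay between 17020 and 17670 normalized counts in the bone marrow libraries and between 15340 and 16180 in the liver libraries. Of 9 hepatocyte genes 6 were at 0 in every library, Alb, Ttr and Fgb among them, while Apoa1, Apoa2 and Trf together held 2674 to 5697 normalized counts in the bone marrow libraries and 2310 to 3064 in the liver libraries. Liver replicate 1 stands apart in many histone genes, and several counts, medians and class sums are also given without it.

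Together the 68 genes took 0.0636% to 0.0743% of a bone marrow library's normalized counts and 0.0829% to 0.12% of a liver library's. In bulk libraries, fewer cells in S phase and less histone RNA per cell cannot be told apart. Few genes carried most of this signal: the 5 most abundant made up 57.5% and the 20 most abundant 88.5%. Those 5 were Hist1h1c, Hist1h4d, Hist1h2bc, Hist1h1b and Hist1h1e. Per kilobase of exon, bone marrow levels were highest for Hist1h4d (1305 normalized counts), Hist1h1b (1128), Hist1h1c (1019) and Hist1h2bc (994). At the other end 3 genes, Hist2h2aa2, Hist2h3c1 and Hist1h2aa, had no read in any library, and all 50-base windows of Hist2h2aa2 and Hist2h3c1 also occur in transcripts of other genes.

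A gene was tested where its mean over the 6 libraries reached 10 normalized counts, which 54 of the 68 histone genes did. Of those 54, 3 had a bone marrow mean under 10 and 1 had a liver mean under 10. The 14 genes that were not tested had 57 reads or fewer over all libraries. Over all 68 genes the mean was higher in liver for 60, lower for 5 and at 0 in both tissues for 3. Fold changes below come from limma on log2(normalized count + 1), a scale that understates the change of low genes, and an adjusted p under 0.05 counted as passing.

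Of the 54 tested histone genes, 4 passed, all higher in liver, beside 0.42% of all 14298 tested genes that passed in that direction (1.01% in either direction). The limma adjusted p of the 4 lay between 0.0415 and 0.0475, close to the threshold. Just past it were Hist1h3d (0.0548) and Hist1h2bj (0.0556), so passing does not mark a clear divide. None passed in the lower direction, beside 0.594% of all genes, and none was lower at an unadjusted p under 0.05 in limma (8.04% of all genes), with 0 lower also by edgeR and DESeq2 on recovered reads. For 31 of the 54 genes the lowest liver library exceeded the highest bone marrow library, beside 11.4% of all tested genes. A positive fold change was found for 52 of the 54, beside 48.4% of all. The median log2 fold change was 0.77 over the 54 genes and -0.01 over all tested genes. These shares describe genes chosen with the tissue difference known.

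**Figure D1:**
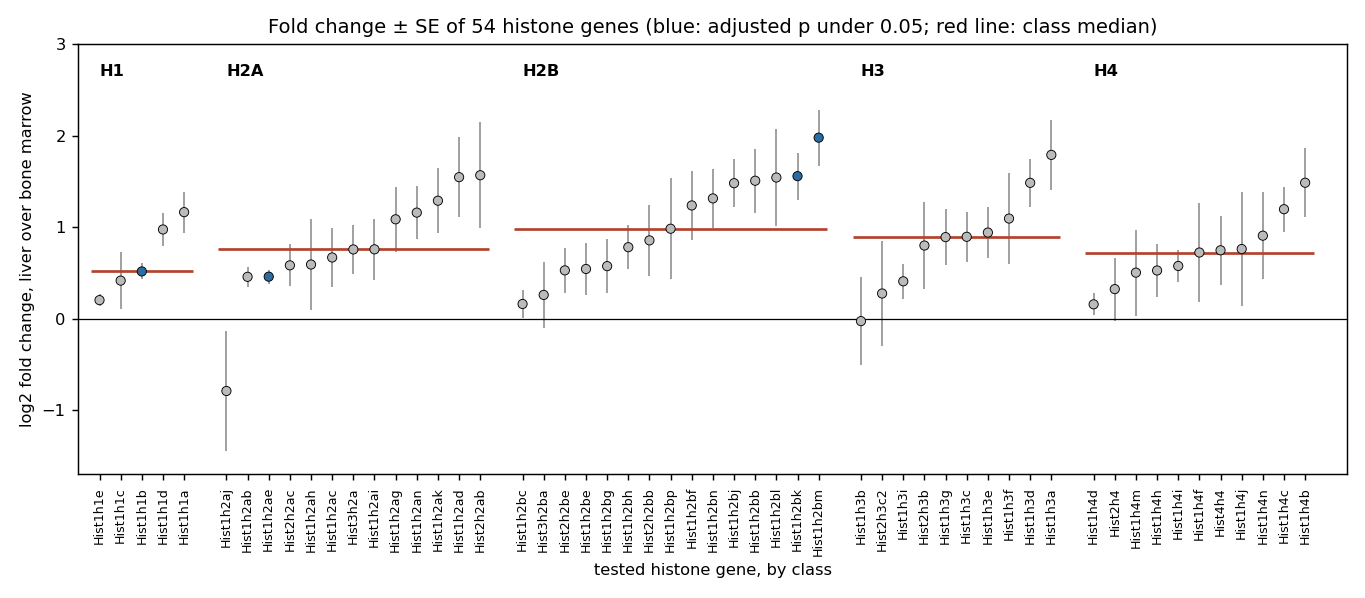
Log2 fold change of liver over bone marrow (y axis) with its SE for each of the 54 tested histone genes (x axis), ordered within the 5 classes. Blue points mark the 4 genes past the threshold, red lines the class medians, which lie between 0.52 (H1) and 0.98 (H2B).

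Hist1h2bm, a gene of a core H2B protein on chromosome 13 from 21722044 to 21722567 (plus strand, GENCODE M21 on GRCm38), had the largest fold change. Its 3 bone marrow libraries held 17.1, 34.3 and 21.6 normalized counts and its 3 liver libraries 108, 83.9 and 93.9. The tissues did not overlap, and no liver library stood apart. The log2 fold change was 1.98 ± 0.31 (SE), from 88 reads in bone marrow and 246 in liver. Of its 50-base windows 43.8% also occur in transcripts of other genes, so reads could be shared with other H2B copies.

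Hist1h2bk, another H2B gene (chromosome 13, 22035870 to 22036345, plus strand), had a log2 fold change of 1.56 ± 0.26 (SE). Its bone marrow libraries held 35.0, 25.7 and 30.5 normalized counts and its liver libraries 116, 82.4 and 78.3. The tissues did not overlap, and 74.2% of its windows occur in other genes.

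The other genes that passed were abundant and changed less. Hist1h2ae, an H2A gene (chromosome 13, 23570517 to 23571220, minus strand), held 634, 600 and 642 normalized counts in bone marrow and 825, 883 and 873 in liver, a log2 fold change of 0.46 ± 0.07 (SE). Hist1h1b, a linker histone gene (chromosome 13, 21779883 to 21780625, minus strand), held 884, 787 and 843 in bone marrow and 1099, 1293 and 1210 in liver, a log2 fold change of 0.52 ± 0.09 (SE). Liver replicate 1 was the lowest liver library for both, while it was the highest for Hist1h2bm and Hist1h2bk. None of the 50-base windows of Hist1h1b occurs in another gene, so its reads are not exposed to sharing between copies. Of the windows of Hist1h2ae 43.2% occur in other genes, and its exons overlap the small gene model Gm44394.

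**Figure D2:**
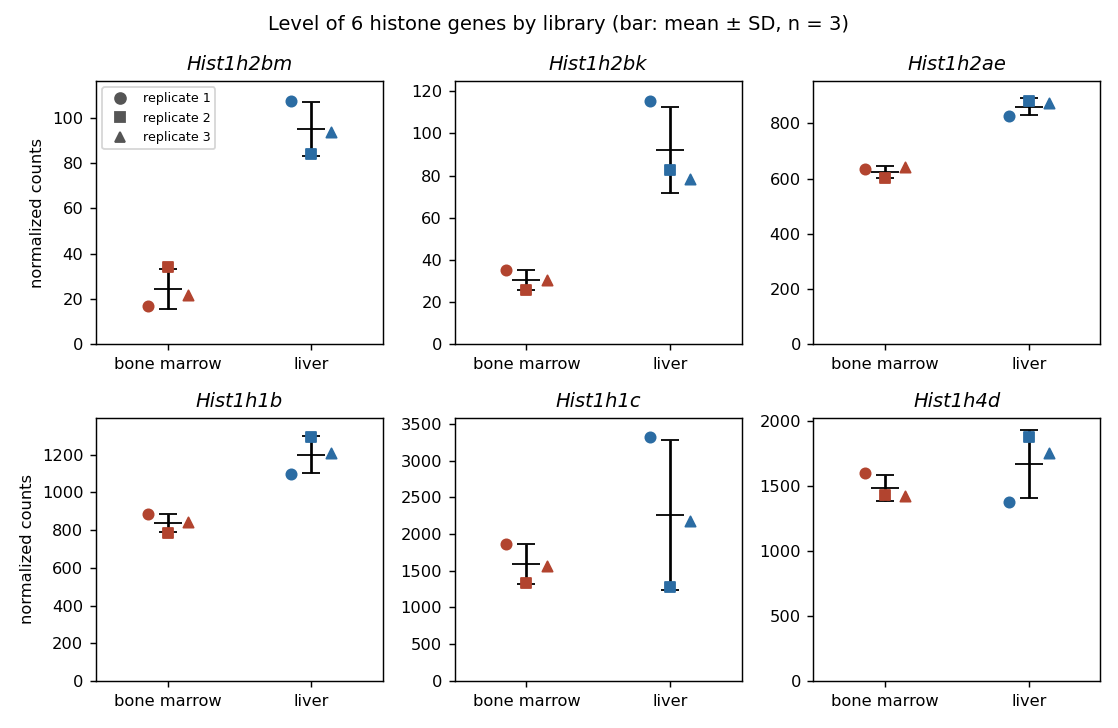
Normalized counts (y axis) in the 3 bone marrow (red) and 3 liver (blue) libraries for the 4 histone genes past the threshold and for Hist1h1c and Hist1h4d, the most abundant members. Marker shape gives the replicate number and the bar the mean ± SD. The tissues overlap for Hist1h1c and Hist1h4d.

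The 4 calls depended on single libraries. No histone gene passed without bone marrow replicate 1, 2 or 3, or without liver replicate 3, fits in which 0.0767%, 0.119%, 0.042% and 0.0559% of all genes passed. Without liver replicate 1, 7 passed (2.98% of all genes), which included Hist1h2bm, Hist1h2ae and Hist1h1b, and the median log2 fold change fell to 0.55. Without liver replicate 2, 4 passed (0.602% of all genes), and these were Hist1h2bj, Hist1h1d, Hist1h3d and Hist1h1a, none of which passed with all libraries. The log2 fold change of Hist1h2bm stayed between 1.76 and 2.25 and that of Hist1h2ae between 0.43 and 0.49 in the 6 fits. Hist1h1b did not pass with TMM factors, and with no filter on low genes Hist1h2bm alone passed.

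The linker histone class was led by Hist1h1c, Hist1h1b and Hist1h1e. Its 6 genes together held 4169, 3477 and 3855 normalized counts in the bone marrow libraries and 6766, 4366 and 5480 in the liver libraries. The tissues did not overlap and the ratio of means was 1.44. The most abundant member, Hist1h1c, held 1869, 1336 and 1564 in bone marrow and 3317, 1282 and 2183 in liver, so that liver replicate 2 lay below every bone marrow library. Without Hist1h1c the other 5 genes rested on a closer spread, 2244 ± 89.5 in bone marrow and 3277 ± 183 in liver (SD, n = 3 each). Hist1h1e was the steadiest member, at 918 ± 30.8 in bone marrow and 1057 ± 29.2 in liver. Hist1h1a (115.5 ± 6.76 and 268 ± 80.3) and Hist1h1d (371 ± 20.2 and 747 ± 197) had the larger ratios of liver to bone marrow means, 2.32 and 2.01, without passing. Hist1h1t, the testis linker histone gene, had 12 reads in all.

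The H2A sum averaged 1643 ± 97.8 normalized counts over the bone marrow libraries and 2630 ± 529 over the liver libraries (SD, n = 3 each). These did not overlap and stood at a ratio of 1.60. Hist1h2ae supplied 38.1% of the class in bone marrow and 32.7% in liver. Among 13 tested H2A genes the median log2 fold change was 0.76, and 0.50 without liver replicate 1. Some members had even liver libraries, such as Hist1h2ab (275, 294 and 302 in liver against 204 to 215 in bone marrow), and others were led by liver replicate 1, such as Hist1h2ac (559, 216 and 341 in liver against 178 to 253). Hist3h2a, from the small cluster on chromosome 11, was of the latter kind, with 493, 226 and 324 in liver and 182 to 212 in bone marrow. The largest fold change was that of Hist2h2ab (1.57 ± 0.58), which rests on 39 reads in bone marrow and 95 in liver. Hist1h2aj, annotated as an unprocessed pseudogene in M21, had the smallest at -0.79 ± 0.65, from 50 and 22 reads.

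The H2B median was 0.98 over 15 tested genes, all with a positive fold change. It was the highest of the class medians with all libraries, but H3 lay above it without liver replicate 1 (0.84 against 0.80) and without liver replicate 3 (0.96 against 0.90). Its sum overlapped between tissues: the bone marrow libraries held 2031, 1622 and 1757 normalized counts and the liver libraries 3313, 2030 and 2553. Hist1h2bc made up 63.7% of the class in bone marrow and 48.9% in liver and had the smallest fold change of the tested H2B genes (0.16 ± 0.15), with 1149 ± 176 in bone marrow and 1287 ± 213 in liver. Its log2 fold change was 0.0416 without liver replicate 1, 0.0532 without bone marrow replicate 2, 0.2736 without bone marrow replicate 1 and 0.2805 without liver replicate 2. The other 17 genes rested at 654 ± 39.8 in bone marrow against 1344 ± 433 in liver, 2.06 times as much. Hist1h2bj, at 60.8 ± 2.17 and 178 ± 59.1, had a log2 fold change of 1.48 ± 0.26 without passing.

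The H3 class had the lowest summed level of the classes and the largest ratio of liver to bone marrow. Its 12 genes together held 354, 347 and 357 normalized counts in the bone marrow libraries and 918, 571 and 707 in the liver libraries, 2.08 times as much with no overlap, although no H3 gene passed. Hist1h3d held 65.5, 61.7 and 85.5 in bone marrow and 271, 144 and 200 in liver. Hist1h3a had the largest fold change of the class (1.79 ± 0.39), with 18.8 to 27.8 in bone marrow and 127, 48.3 and 83.1 in liver. Hist1h3b, at 14.7 and 15.5 on average, had a log2 fold change of -0.03 ± 0.48. The H3 share of the histone sum was 3.72% ± 0.25 in bone marrow and 5.24% ± 0.31 in liver (SD, n = 3 each).

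The H4 class had the smallest ratio of sums, 1.25, and the smallest spread between liver libraries. The bone marrow libraries held 1978, 1831 and 1829 normalized counts and the liver libraries 2263, 2379 and 2417, without overlap. Hist1h4d alone supplied 79.0% of the class in bone marrow and 70.9% in liver and had a log2 fold change of 0.16 ± 0.12, with 1598, 1432 and 1425 in bone marrow and 1375, 1875 and 1756 in liver. That value was 0.2907 without liver replicate 1 and 0.0673 without liver replicate 2. The other 12 genes held 394 ± 12.7 in bone marrow against 685 ± 193 in liver, 1.74 times as much. Hist1h4i (184 ± 3.15 and 280 ± 64.7) and Hist1h4c (57.3 ± 4.34 and 136 ± 38.2) did not overlap between tissues, and Hist1h4b had the largest fold change of the class (1.49 ± 0.38). No H4 gene passed, and the median over 11 tested genes was 0.72, or 0.41 without liver replicate 1.

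**Figure D3:**
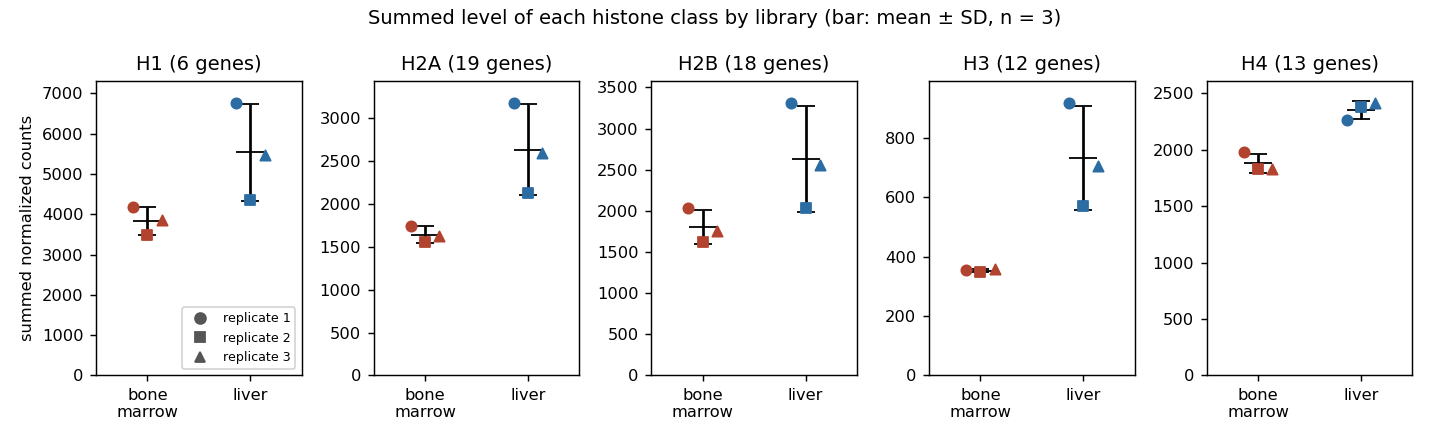
Summed normalized counts (y axis) of all genes of each histone class in the 3 bone marrow (red) and 3 liver (blue) libraries, with the mean ± SD. The H1, H2A, H2B and H3 sums are highest in liver replicate 1, while the H4 sum lies between 2263 and 2417 in the 3 liver libraries.

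Hist1h2bc and Hist1h4d were the leading genes of H2B and H4. With Hist1h2bc and Hist1h4d set aside, the ratios of liver to bone marrow were 2.06 and 1.74, beside 1.74 for H2A without Hist1h2ae, 1.87 for H3 without Hist1h3d and 1.46 for H1 without Hist1h1c. With 3 libraries a tissue, an exact two-sided permutation test of any such sum cannot go below 0.1, and the differences between classes were not tested. The 13 genes with at most 20% of their windows in other genes gave a ratio of 1.43, beside 1.46 for all 68.

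The liver libraries kept a common order over most histone genes. Liver replicate 1 was the highest liver library for 43 of the 54 tested genes, beside 38.3% of all tested genes. The full order of replicate 1, then 3, then 2 held for 40 of the 54 (74.1%), beside 24.5% of all genes. Against the bone marrow mean the median histone gene stood 1.32 log2 units higher in liver replicate 1, 0.74 in replicate 3 and 0.48 in replicate 2, while the median of all tested genes was within 0.01 of 0 in each. Liver replicate 1 held at least 2 times the level of liver replicate 2 for 23 of the 54 genes, beside 5.82% of all genes. Liver replicate 2 still lay above every bone marrow library for 33 of the 54 (32.7% of all genes). In bone marrow the same order held for 13 of the 54, and the median ratio of replicate 1 to replicate 2 was 1.05. Liver read totals (13819061, 11374467 and 9731597) and liver Xist (6229, 2425 and 1.42) also ran in the order of replicates 1, 3 and 2. In bone marrow Xist kept that order (4860, 2486 and 4.28), while read totals did not. The part of depth or of sex-linked differences in the histone order was not tested.

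That order was rare among genes of DNA synthesis. Of 30 S-phase genes chosen from textbook roles, 1 showed it, 4 were highest in liver replicate 1 and 16 in liver replicate 2. Their median over the bone marrow mean was 0.26 in liver replicate 1, 0.42 in replicate 2 and 0.31 in replicate 3. Small nuclear RNA genes summed to 805, 462 and 531 normalized counts in liver replicates 1, 2 and 3, while the bone marrow libraries held 400.4 to 457. The 7SK RNA gene Rn7sk did not keep the histone order, with 92.9, 158 and 117 in liver replicates 1, 2 and 3. Small nucleolar RNA genes summed to 1123, 860 and 944 in liver and 957 to 1035 in bone marrow. Both RNA classes and Rn7sk were picked with their values in view. The share of mitochondrially encoded transcripts was 1.03% in liver replicate 1 and 0.887% in liver replicate 2, against 0.903% to 1.03% in bone marrow. Primary granule genes (Mpo, Elane, Prtn3, Ctsg and Ms4a3) ran the other way, with 2143 in liver replicate 1 and 10490 in replicate 2 against 1392 to 2936 in bone marrow, and 9 mature neutrophil genes summed to 177 and 876 in those liver libraries against 79.9 to 121. The sum of 7 erythroid genes, none of which passed, was 3852 in liver replicate 1, 4642 in replicate 2 and 4578 in replicate 3, below the 6315 to 7093 of the bone marrow libraries. The part of these values in the histone levels was not tested.

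**Figure D4:**
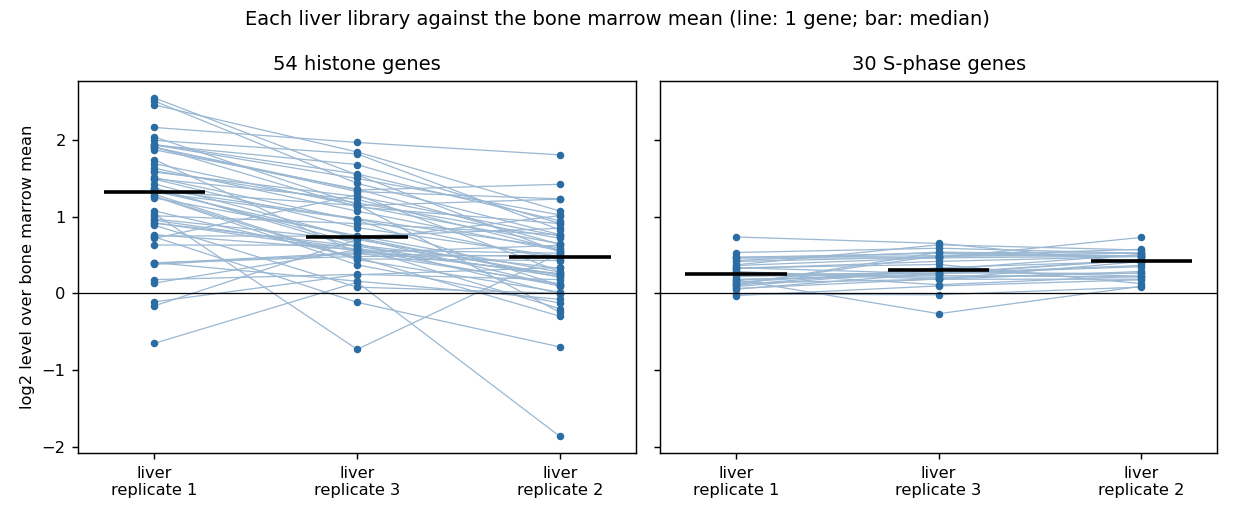
Level of each gene in a liver library over its bone marrow mean (y axis, log2 of normalized count + 1) for the 54 tested histone genes (left) and 30 S-phase genes (right). Histone medians go from 1.32 in liver replicate 1 to 0.48 in replicate 2, S-phase medians from 0.26 to 0.42.

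H2A and H2B genes often lie head to head with a shared start region. In GENCODE M21 13 such pairs of histone genes had starts within 500 bases (176 to 306), each pairing an H2A with an H2B gene, and both partners were tested in 10 pairs. In 9 of these both fold changes were positive. Hist1h2ak and Hist1h2bn stood at nearly the same value (1.29 and 1.31), as did Hist2h2ac and Hist2h2be (0.58 and 0.53). Hist1h2bm departed most from its neighbour, 1.98 against -0.79 for Hist1h2aj with 236 bases between their starts. Hist1h2aj, a pseudogene in M21, rests on 50 reads in bone marrow and 22 in liver. With an SE of 0.65 the sign of its fold change is uncertain. Hist1h2bk stood at 1.56 and its partner Hist1h2ah at 0.59. Levels within a pair also differed: Hist1h2ac averaged 219 and Hist1h2bc 1149 normalized counts in bone marrow, which are not corrected for their exon lengths.

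**Figure D5:**
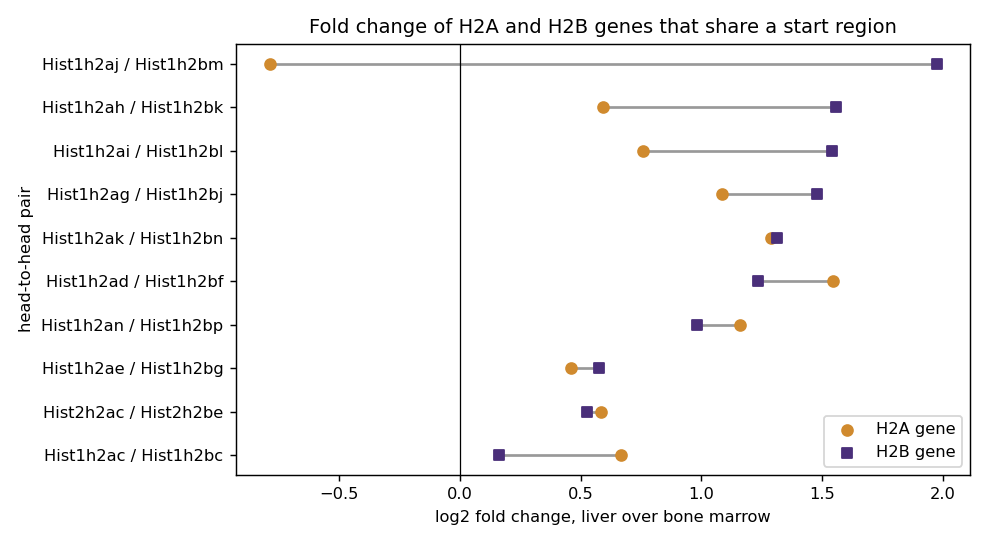
Log2 fold change of liver over bone marrow (x axis) for the H2A (orange circles) and H2B (purple squares) gene of each of 10 head-to-head pairs (y axis). Both partners are above 0 in 9 pairs, and Hist1h2bm and Hist1h2aj lie on opposite sides of 0. The value of the pseudogene Hist1h2aj has an SE of 0.65, and its sign is uncertain.

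Other genes of histone supply were described from lists of known members. Replacement histones are made outside S phase too and from polyadenylated mRNAs. Of 12 tested genes 0 passed in limma, edgeR or DESeq2. In limma 1.01% of all genes passed, so a count of 0 among so few genes does not set them apart. At an unadjusted p under 0.05 in limma 3 were higher and 0 lower, beside 7.65% and 8.04% of all genes, and the median log2 fold change was 0.06. H2afz, the gene of H2A.Z, held 8719, 8001 and 8725 normalized counts in the bone marrow libraries and 9392, 10080 and 9988 in the liver libraries, without overlap. H3f3b, a gene of H3.3, stood at 17240 to 18870 in bone marrow and 17340 to 19800 in liver. H2afx and H2afy likewise overlapped between tissues.

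Factors of histone transcription and mRNA end formation did not pass in any of these tools either, with 0 of 17 tested. Beside 1.01% of all genes in limma, this count does not set them apart. At an unadjusted p under 0.05 in limma 2 were higher and 0 lower, beside the same 7.65% and 8.04% of all genes, and the median was 0.08. The 4 most abundant, Cpsf2, Upf1, Ncbp1 and Srrt, had log2 fold changes between -0.03 and 0.13. Slbp, the stem-loop binding protein gene, is given outside the naming rule with its values known. Its bone marrow libraries held 1703, 1617 and 1448 normalized counts and its liver libraries 1851, 1971 and 1853 without overlap, a log2 fold change of 0.25 ± 0.08 that did not pass.

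Of 21 histone chaperone genes, whose products carry histones to chromatin, 0 passed in limma (1.01% of all genes) and 0 in edgeR. By DESeq2 5 were higher (1.92% of all genes). At an unadjusted p under 0.05 in limma 8 were higher and 0 lower, beside 7.65% and 8.04% of all genes, and the median was 0.12. Without liver replicate 1 the limma count was 3 (2.98% of all genes). Ssrp1, a subunit of the FACT complex, held 4919 to 5058 normalized counts in the bone marrow libraries and 5658 to 6199 in the liver libraries. Npm1, Rbbp4 and Rbbp7 had log2 fold changes of 0.06, 0.05 and 0.15.

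S-phase genes differed by small amounts. All 30 had a positive fold change, beside 48.4% of all genes, with a median of 0.29. Of the 30, 5 rose (adjusted p under the threshold in limma, beside 0.42% of all genes), while 25 did not pass. Uhrf1, which recognizes newly replicated methylated DNA, rose from 1621 ± 13.2 to 2279 ± 44.2 normalized counts (SD, n = 3 each, limma adjusted p = 0.018). Dut, which removes dUTP from the nucleotide pool, rose by 0.47 ± 0.06 on the log2 scale, and the helicase and origin factors Mcm5, Cdc45 and Cdt1 rose by 0.41, 0.55 and 0.48. Of the abundant genes Mcm2, Mcm3, Mcm6 and Rrm1, none passed, with values of 0.22 to 0.29. The count of 5 fell to 0 without bone marrow replicate 1, 2 or 3 (0.0767%, 0.119% and 0.042% of all genes) or without liver replicate 3 (0.0559%). It was 2 without liver replicate 2 (0.602% of all genes) and 11 without liver replicate 1 (2.98%). This list overlaps genes already known from these libraries to be higher in liver and is no independent evidence of its direction.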

How the data were processed

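Values are a signal: for each gene and library the authors gave a read count scaled by that library's size factor, going by the deposited table's name and by DESeq2 in the submitters' processing notes. Named in those notes, without their roles, are R 3.4.1, DESeq2 1.16.1, STAR 2.6.0c, Trimmomatic 0.36 and bcl2fastq 2.19.0. Genome build, annotation, read counter and the handling of reads that match several copies: not given in the sources used here. In every library 100% of values were whole multiples of the smallest value (tolerance 0.01), so reads could be recovered.

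A limma model (version 3.58.1, under R 4.3.3) of tissue alone, with trended variance, was run on log2(normalized count + 1) for the 14298 genes with a mean of at least 10. Tests were two-sided, with Benjamini-Hochberg adjustment over all these genes, and measure only the spread between libraries. On recovered reads edgeR 4.0.16 called 135 genes and DESeq2 1.42.0 called 622. Other alternatives were TMM factors, pseudocounts of 0.5 and 10, a minimum mean of 50 or none, the replicate number as a term, and leaving out each library or both replicate 3 libraries. Libraries of a tissue differed beyond sampling noise (chi-square per degree of freedom 6.75 to 27.8) and were all kept. Members and lists were chosen with earlier results of these data known. Named histone genes are the 20 with the highest mean, those that passed, and the largest and smallest fold change of each class, 27 in all. Of the other lists, genes that passed and the 4 with the highest mean are named. All further genes were picked with their values in view. Gene models are GENCODE M21 and promoters RefSeq GRCm38.p6, matched by symbol or synonym. Figures were drawn with matplotlib 3.10.9.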

Additional observations from a re-analysis of the deposited data

How the results depend on the processing

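The positive sign of every class median and class sum held under every alternative run. The count of histone genes higher in liver was 4 with all libraries, 14 by DESeq2, 1 with no filter, 10 with the replicate number as a block, 0 without both replicate 3 libraries and 0 to 7 when 1 library was left out. No histone gene was called lower in any of these. Over all genes the count was 145, against 622 by DESeq2, 525 with the replicate block, 2 without both replicate 3 libraries and 6 to 427 when 1 library was left out. S-phase calls numbered 14 by DESeq2, 12 with the replicate block, 0 without both replicate 3 libraries and 0 to 11 when 1 library was left out. Histone chaperone calls numbered 5 by DESeq2, 4 with the replicate block, 1 at a mean of at least 50 and 0 to 3 when 1 library was left out. The labels do not say that a replicate number links the tissues, and the correlation of same-numbered libraries did not exceed 0.1 in every pair. The deviations of same-numbered libraries from their tissue means correlated at 0.44, 0.40 and 0.06 across genes for replicates 1, 2 and 3. Each bone marrow library correlated best with the liver library of its own number, but liver replicate 3 correlated better with bone marrow replicate 2 (0.15). The level of Xist followed the number in both tissues. These are hints from the data that the numbers may link libraries, and the design does not state it.

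When 1 library was left out the H2A median ranged from 0.50 to 1.01, the H3 median from 0.82 to 1.14 and the H4 median from 0.41 to 0.94. The H3 median also lay above the H2B median without both replicate 3 libraries (0.99 against 0.83). Over the genes with mostly unique sequence the H1 median (0.75) and the value of the 1 H2A gene (0.67) lay above the H2B median (0.54). The H1 median was 0.75 with no filter, where Hist1h1t enters, 0.75 over the genes with mostly unique sequence, and 0.47 to 0.77 when 1 library was left out. The H2B median was 1.27 by DESeq2, 1.26 by edgeR, 0.54 over the genes with mostly unique sequence (3 genes in the class) and 0.80 to 1.24 when 1 library was left out. The log2 ratios of the H1, H2A, H2B, H3 and H4 sums were 0.53, 0.68, 0.55, 1.05 and 0.32 with all libraries. Without liver replicate 1 they were 0.36, 0.52, 0.35, 0.86 and 0.35. The H4 sum was 0.25 on the log2 scale over the genes with mostly unique sequence, against 0.32. The restriction to mostly unique sequence was chosen after seeing the data, and no H3 gene met it. Pseudocount, filter, block and count tools do not apply to class sums.

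Among single genes, the log2 fold change of Hist1h3b (-0.03) took the other sign in DESeq2 (0.0918), in edgeR (0.0962), at a pseudocount of 10 (0.005) and without both replicate 3 libraries (0.1341), and ranged from -0.4062 to 0.3095 when 1 library was left out. With 1 library left out, the log2 fold change of Cpsf2 ranged from -0.0906 to 0.0579, the log2 fold change of H3f3b from -0.0057 to 0.0899 and the log2 fold change of Upf1 from -0.0418 to 0.0576. Where these values moved, the cause was not tested. Of the 54 tested genes the least covered rests on 61 reads over 6 libraries.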

Other observations

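Some histone rows outside the tests were uneven between libraries. Hist1h2bq, an H2B gene with 98.5% of its 50-base windows in other genes, had 30 reads in liver replicate 1 and 0 in each of the other 5 libraries. Hist1h4a had 24, 4 and 12 reads in liver replicates 1, 2 and 3 and 4, 7 and 6 in bone marrow. Hist3h2bb-ps, the row left out of the 68, held 56.3, 1.42 and 34.9 normalized counts in liver replicates 1, 2 and 3 and 11.7, 9.42 and 1.49 in bone marrow. The U11 small nuclear RNA gene Rnu11 held 117, 29.8 and 49.4 in liver and 14.9 to 25.7 in bone marrow, whereas the 7SK RNA gene Rn7sk held 92.9, 158 and 117 in liver and 56.5 to 76.6 in bone marrow. They were picked with their values in view.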
